A study of Bos taurus with 12 samples.

Results

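Among the 22445 loci measured by RNA sequencing in cattle cells and embryos, 4802 (21.4%) carried no Ensembl gene ID. The authors gave each of these a number of their own after the prefix BGI_novel, and every row with that prefix was taken as a member, with no threshold on FPKM. The other 17643 rows carried Ensembl gene IDs. The study compared 4 groups of Holstein cattle, each with 3 libraries in the labels: fetal fibroblasts, and 8-cell embryos from IVF, from SCNT, and from SCNT with KDM5B overexpression, in pools of 8 embryos. IVF is fertilisation of eggs in vitro, and SCNT is somatic cell nuclear transfer, which places the nucleus of a body cell in an egg without its own nucleus. KDM5B is an enzyme that takes methyl groups off a lysine of histone H3 that is marked at active genes, and the way it was overexpressed is not given in the sources used here. Nor do those sources say whether the sequenced fibroblasts were the nuclear donors.

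A locus without an Ensembl ID is a stretch of genome from which reads were collected where the annotation in use had no gene. Such loci can be genes missing from the annotation, long noncoding RNAs, transcribed repeats or ends of known genes. Early embryos are known for transcripts of this kind, since the 8-cell stage in cattle is when the embryo's own genome takes over from RNA stored in the egg, and transcription from endogenous retroviral repeats is common at this step in mammals. The table gives no sequence, position, length or coding status for the unannotated loci, and neither their IDs nor the Ensembl IDs matched an entry of the gene table used here, of assembly ARS-UCD2.0. No gene name is therefore given to any locus, no sequence is printed, and markers of fibroblasts or of early embryos were not analysed here. How the authors defined the loci is not given in the sources used here, and any part that detection in these same libraries had in that definition was not tested.

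Levels are given as FPKM, which counts fragments relative to transcript length and to the mapped fragments of a library. The table holds 1 value per group and locus, the authors' mean. Depth is unknown, since means of FPKM keep no read totals. Without library values no SD, interval or p-value can be given, and a high mean may rest on all 3 libraries or on 1. Differences below are between group means, described by their size, with no replicate check. A difference in summed RNA may come from the number of cells or from RNA per cell, which cannot be told apart in bulk samples. The series' design text places fibroblasts and embryos on different sequencing instruments, while the protocol text names 1 instrument family for all. What is due to the instrument and what to the cell type cannot be told apart.

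Unannotated loci were mostly of low abundance and reached 1 FPKM more often in embryos than in fibroblasts. A level of at least 1 FPKM was reached by 768 of the 4802 (16%) in fibroblasts, where 2929 (61.0%) were above 0. The embryo groups had 2411 (50.2%) in IVF, 1962 (40.9%) in SCNT and 2231 (46.5%) in SCNT with KDM5B. Ensembl IDs reached this level about equally often in all groups, with 61.5%, 57.6%, 52.7% and 56.1%. The median unannotated locus stood at 0.0417 FPKM in fibroblasts, 1.01 in IVF, 0.692 in SCNT and 0.867 in SCNT with KDM5B. The corresponding medians of Ensembl IDs were 3.78, 2.02, 1.27 and 1.71 FPKM. Fibroblasts thus had the lowest median for unannotated loci and the highest for Ensembl IDs. At 5 FPKM the order within embryos was different, with 678 unannotated loci in IVF, 649 in SCNT and 737 with KDM5B, against 229 in fibroblasts. These were 14.1%, 13.5%, 15.3% and 4.77% of the unannotated loci, against 38.5%, 33.5%, 36.2% and 45.9% of Ensembl IDs. All 4802 loci were above 0 in at least 1 group, as were all 17643 Ensembl IDs, so the table may list only loci above 0 in some group.

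**Figure D1:**
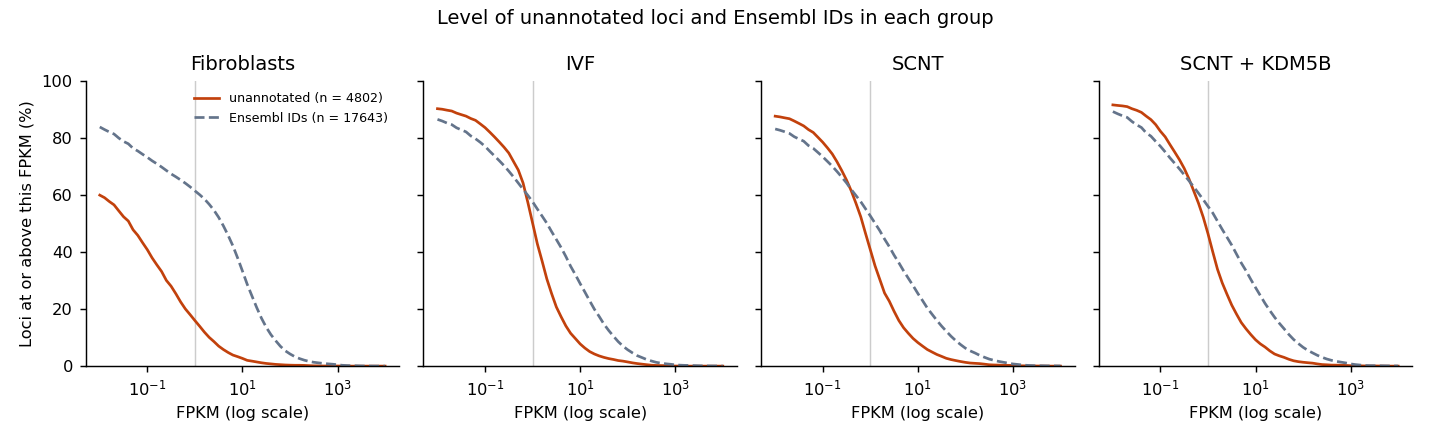
Share of loci (y axis, percent) at or above each FPKM level (x axis, log scale) for the 4802 unannotated loci (solid) and 17643 Ensembl IDs (dashed), with 1 panel per group and a grey line at 1 FPKM. The curves cross below 1 FPKM in the 3 embryo groups, while in fibroblasts the unannotated loci lie below the Ensembl IDs throughout, with 16% against 61.5% at 1 FPKM.

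High levels were rare among them but did occur. The unannotated loci made up 2.31% of the summed FPKM of fibroblasts, 4.49% of IVF, 5.98% of SCNT and 5.97% of SCNT with KDM5B. Fibroblasts had 16 loci at 100 FPKM or more, IVF embryos 70, SCNT embryos 63 and those with KDM5B 65. These were 0.333%, 1.46%, 1.31% and 1.35% of the unannotated loci, against 4.27%, 5.74%, 6.30% and 6.60% of Ensembl IDs. The numbers at 1000 FPKM or more were 2, 1, 11 and 7, and those of Ensembl IDs 85, 78, 133 and 136. Both classes thus had more such loci in the clone groups than in IVF. A few loci carried much of each sum: the 10 most abundant held 47.9% of the unannotated FPKM in fibroblasts, 23.7% in IVF, 42.9% in SCNT and 41.4% with KDM5B. Of the 1000 most abundant rows of each column, 20 were unannotated in fibroblasts, 65 in IVF, 52 in SCNT and 57 with KDM5B, all well under their 21.4% share of the rows.

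The pair of unannotated loci with the highest levels in clones were also abundant in IVF embryos and were listed at 0 in fibroblasts. BGI_novel_G003846 had 829 FPKM in IVF, 5128 in SCNT and 5699 with KDM5B, and was listed at 0 in fibroblasts. Ranked among the Ensembl IDs of the same column, it would take place 103 in IVF, 16 in SCNT and 15 with KDM5B. BGI_novel_G001658 had 850.3 FPKM in IVF, 4674 in SCNT and 4489 with KDM5B, at ranks 99, 16 and 20, and was likewise listed at 0 in fibroblasts. In both clone groups, no more than 19 Ensembl IDs stood above either locus.

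BGI_novel_G003788 had 281 FPKM in IVF, 2621 in SCNT and 3181 with KDM5B, and was also listed at 0 in fibroblasts. BGI_novel_G003781 was present in all groups, at 78.5 FPKM in fibroblasts, 716 in IVF, 1729 in SCNT and 1756 with KDM5B. These 4 loci had higher values in both clone groups than in IVF, by 2.42-fold (BGI_novel_G003781) to 9.32-fold (BGI_novel_G003788) in SCNT. BGI_novel_G004468 differed from them in that the clone groups were far apart. It had 12.3 FPKM in IVF, 2819 in SCNT and 683 with KDM5B, at ranks 4645, 28 and 224 among Ensembl IDs, and at 0 in fibroblasts.

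Among the 5 most abundant unannotated loci of IVF embryos, 2 were the leading loci of clones just described and 3 had other orders. BGI_novel_G000316 led the IVF column with 1625 FPKM (rank 47 among Ensembl IDs) and stood at 204 in fibroblasts, 1009.55 in SCNT and 1752 with KDM5B. BGI_novel_G004487 stood at 962 FPKM in IVF, 199.6 in SCNT, 249 with KDM5B and 46.1 in fibroblasts. BGI_novel_G000848 stood at 811 FPKM in IVF, 60.0 in SCNT, 135 with KDM5B and 0.153 in fibroblasts. The last of these was 13.5-fold lower in SCNT than in IVF and 5.99-fold lower with KDM5B than in IVF.

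Fibroblasts had leading loci of their own. BGI_novel_G004213 stood at 1793 FPKM in fibroblasts, rank 29 among Ensembl IDs, and at 32.0 in IVF, 23.6 in SCNT and 52.1 with KDM5B. BGI_novel_G000132 stood at 1524 FPKM in fibroblasts, 110.3 in IVF, 20.0 in SCNT and 37.1 with KDM5B. The next in order were BGI_novel_G003849 at 490.5 FPKM, BGI_novel_G002389 at 451 and BGI_novel_G000297 at 320.1, which stood at 92.0, 7.06 and 1.01 FPKM in SCNT embryos. None of these 5 fibroblast loci was among the 5 leading loci of an embryo group. Of the 50 most abundant unannotated loci of each column, fibroblasts shared 9 with IVF, 13 with SCNT and 14 with the KDM5B group. IVF shared 23 with SCNT and 25 with the KDM5B group, and the clone groups shared 45 with each other.

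**Figure D2:**
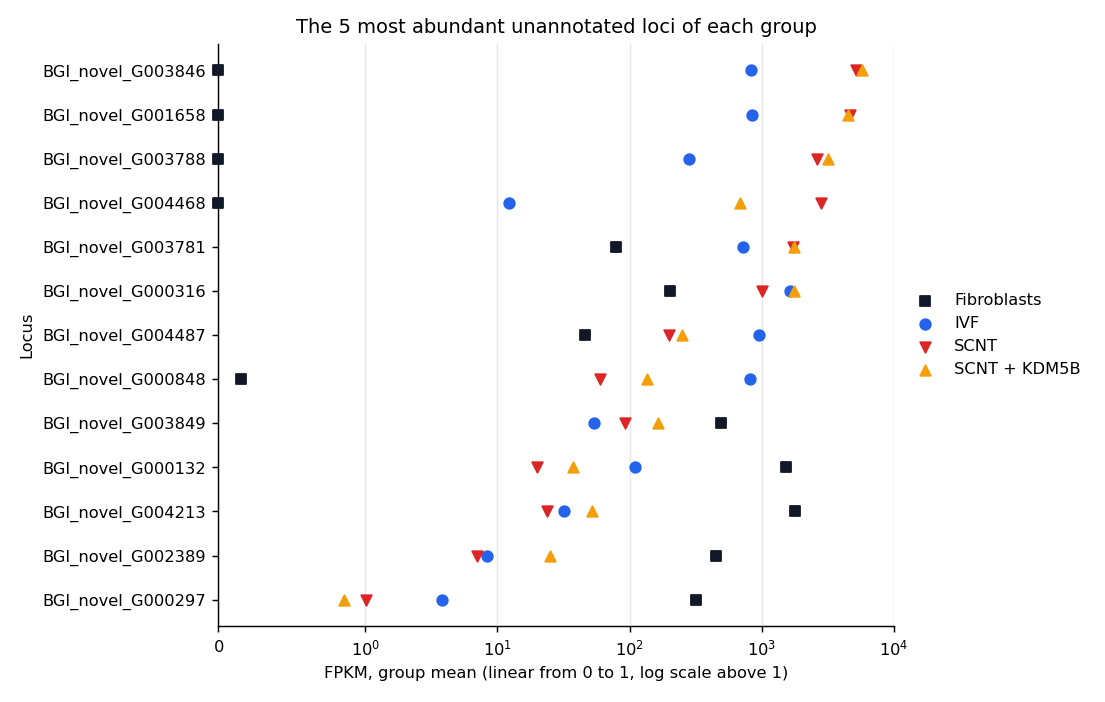
FPKM (x axis, linear from 0 to 1 and log scale above) of the loci that are among the 5 most abundant unannotated loci of any group, 1 row per locus and 1 marker per group mean. The top 4 rows have fibroblasts at 0 and SCNT above IVF, from 12.3 to 2819 FPKM for BGI_novel_G004468, and the bottom 5 rows have fibroblasts above every embryo group.

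Across all 4802 loci, the log2(FPKM + 1) values of the clone groups were close to each other, with Pearson's r of 0.93 and Spearman's rho of 0.83. Between IVF and SCNT r was 0.53 and rho 0.26, and between IVF and SCNT with KDM5B they were 0.58 and 0.34. The 17643 Ensembl IDs gave r of 0.98, 0.84 and 0.85 for the same pairs. Fibroblasts correlated with the embryo groups at r of 0.22 to 0.32 over unannotated loci and 0.44 to 0.52 over Ensembl IDs. These values describe loci within group means and carry no p-value. The unannotated loci are mostly at low FPKM, and the part of level in their lower correlations was not tested.

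Taking at least 1 FPKM as found, 1096 loci (22.8%) were found in no group and 1617 (33.7%) in exactly 1. The corresponding shares of Ensembl IDs were 24.2% and 15.9%. The commonest pattern among unannotated loci was presence in IVF alone, with 985 loci (20.5%, against 3.44% of Ensembl IDs). Next came 653 loci (13.6%, against 6.93%) found in the 3 embryo groups and not in fibroblasts, and 558 loci (11.6%, against 1.70%) found in both clone groups alone. Presence in all 4 groups, the commonest pattern of Ensembl IDs at 39.9%, held for 411 unannotated loci (8.56%). In all, 2938 loci (61.2%) were found in some embryo group and not in fibroblasts, against 14.3% of Ensembl IDs. In both classes, a locus had 3 embryo groups in which to be found and 1 fibroblast group. How far the unannotated loci were defined by detection in these libraries is unknown, so Ensembl IDs may not be a like background. These shares were not tested against each other.

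Single-group loci were mostly near the 1 FPKM limit. The 985 loci found in IVF alone had a median of 1.80 FPKM there, 70 of them reached 5 FPKM and 43 were listed at 0 in the other 3 groups. Their highest members were BGI_novel_G002843, at 22.5 FPKM in IVF, 0.133 in SCNT and 0.317 with KDM5B, and BGI_novel_G002697, at 20.8, 0.267 and 0.927. Only 3 loci reached 5 FPKM in IVF with 0 in every other group: BGI_novel_G004697 at 13.1 FPKM, BGI_novel_G000632 at 8.21 and BGI_novel_G003274 at 6.41, named after their values were seen.

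The fibroblast class was smaller and had higher members. It held 182 loci (3.79%, against 11.7% of Ensembl IDs) with a median of 3.02 FPKM, and 53 of them reached 5. BGI_novel_G000320 led with 312 FPKM in fibroblasts, 0.200 in IVF and 0 in both clone groups. BGI_novel_G000319, with the number before it, followed at 209 FPKM, with 0.0333 in IVF, 0.0600 in SCNT and 0 with KDM5B. Of the 229 loci at 5 FPKM or more in fibroblasts, 88 (38.4%) also reached 5 in all embryo groups and 53 (23.1%) were under 1 in all of them. The shares were 44.9% and 16.1% of the 8096 Ensembl IDs at this fibroblast level, and 6.16% and 26.6% of all unannotated loci. Among the 229, 5 were listed at 0 in every embryo group and were named after their values were seen. They were BGI_novel_G002494 (30.3 FPKM in fibroblasts), BGI_novel_G002493 (25.4 FPKM), BGI_novel_G001794 (18.5 FPKM), BGI_novel_G002240 (11.1 FPKM) and BGI_novel_G003934 (9.10 FPKM).

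Loci found in a single clone group were mostly low. SCNT alone had 183 loci (3.81%, against 0.317% of Ensembl IDs) and SCNT with KDM5B alone had 267 (5.56%, against 0.47%). Their medians were 1.37 and 1.40 FPKM, and 7 loci of each class reached 5 FPKM. BGI_novel_G004212 stood out among them, at 109.7 FPKM in SCNT, 0 in both IVF and SCNT with KDM5B, and 0.0533 in fibroblasts. BGI_novel_G004516 came next at 22.8 FPKM in SCNT, against 0.453 in IVF, 0.937 with KDM5B and 0 in fibroblasts. In the KDM5B class the highest were BGI_novel_G004870, at 8.58 FPKM with KDM5B and 0.0900 in SCNT, and BGI_novel_G004128, at 6.19 and 0.597.

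**Figure D3:**
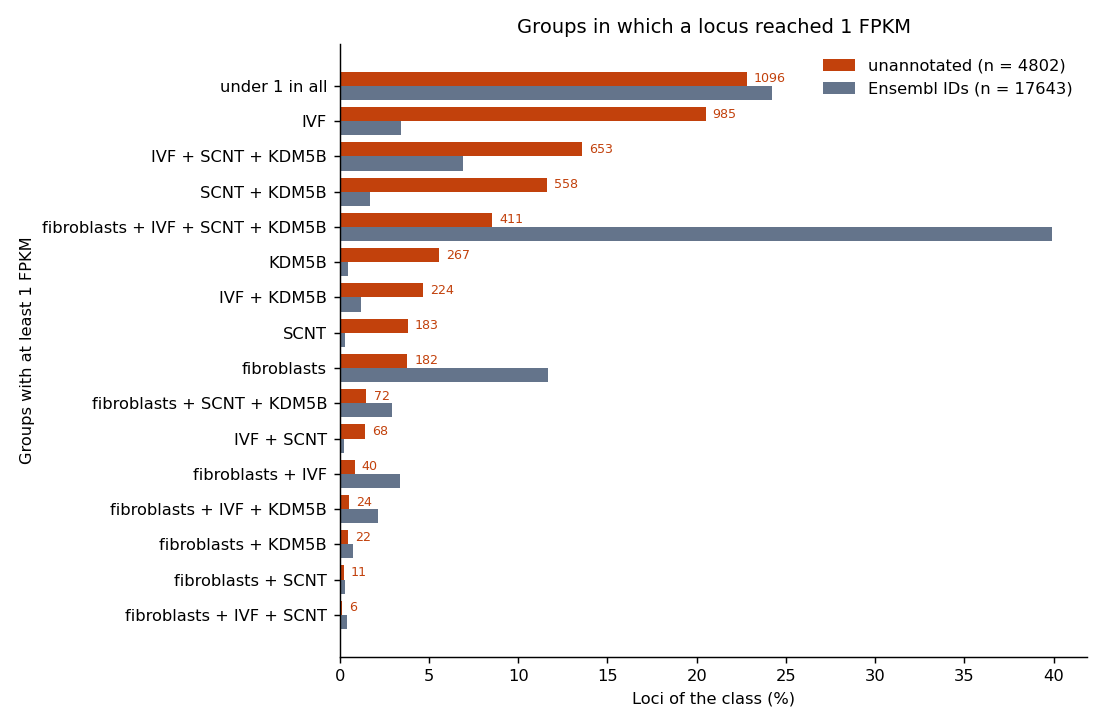
Share of loci (x axis, percent) in each of the 16 possible sets of groups with at least 1 FPKM (y axis), for the 4802 unannotated loci (upper bars, with their number of loci) and 17643 Ensembl IDs (lower bars). Unannotated loci are spread over sets of embryo groups, with 985 in IVF alone and 558 in both clone groups alone, while the longest bar of Ensembl IDs is presence in all 4 groups (39.9%).

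Both clone groups reached 5 FPKM with IVF under 1 for 135 loci, of which 128 (94.8%) were also under 1 in fibroblasts and 3 (2.22%) reached 5 there. These shares are near those of all unannotated loci, of which 84.0% were under 1 and 4.77% reached 5 in fibroblasts. Of the 214 Ensembl IDs with the same embryo pattern, 72 (33.6%) were under 1 and 109 (50.9%) reached 5 in fibroblasts, against 38.5% and 45.9% of all Ensembl IDs. The 5 of those under 1 in fibroblasts that had the highest values in the lower of the clone groups, named after their values were seen, were BGI_novel_G004167, BGI_novel_G004511, BGI_novel_G002338, BGI_novel_G004677 and BGI_novel_G004623. They stood at 70.3 to 117 FPKM in SCNT and 58.99 to 100.4 with KDM5B, against 0.157 to 0.787 in IVF and at most 0.1 in fibroblasts. The 3 that fibroblasts shared were BGI_novel_G000560 (56.5 FPKM in fibroblasts and 29.1 in SCNT), BGI_novel_G003157 (44.9 and 43.1) and BGI_novel_G000241 (30.8 and 33.1), also named after their values were seen. IVF levels of these 3 were 0.367, 0 and 0.727 FPKM.

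A further locus with high values in fibroblasts and clones was above 1 FPKM in IVF and so fell outside that class. BGI_novel_G003675 stood at 208 FPKM in fibroblasts, 1.98 in IVF, 224 in SCNT and 224 with KDM5B. Its value in both clone groups was over 100 times that in IVF (113-fold in each) and close to that in fibroblasts. In the opposite class, 70 loci reached 5 FPKM in IVF and stayed under 1 in both clone groups, and all 70 were under 1 in fibroblasts, as were 84.0% of all unannotated loci. Of 88 such Ensembl IDs, 49 (55.7%) were under 1 in fibroblasts, against 38.5% of all.

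The first comparison of embryos asked how cloned embryos differ from fertilised embryos of the same stage. At least 1 FPKM in some embryo group was reached by 3524 unannotated loci, and 2047 of them (58.1%) lay at least 2-fold apart between SCNT and IVF on the log2(FPKM + 1) scale. Over all 14836 loci of the table that passed the same limit, 60.0% were apart, so the unannotated loci were near the background. SCNT was higher for 822 unannotated loci (23.3%, background 23.3%) and lower for 1225 (34.8%, background 36.7%). The median log2 difference was -0.36 over unannotated loci and -0.45 over all loci. When every column was shifted so that its median deviation from the locus means was 0, the balance turned to 1170 higher and 694 lower, or from 40.2% to 62.8% higher among loci apart. The turn was common to the table: over all loci the share went from 38.8% to 56.8%. After quantile normalization 1018 unannotated loci were higher and 922 lower (52.5%, against 47.1% over all loci). As TPM, 820 were higher and 1415 lower (36.7%, against 34.5%).

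The most different loci were far beyond 2-fold under every scaling tried. BGI_novel_G004468, described above, was 229.8-fold higher in SCNT than in IVF, a log2(FPKM + 1) difference of 7.73. BGI_novel_G004212 was next, with a difference of 6.79 and no fold because IVF was listed at 0. In the other direction, BGI_novel_G001648 had 130.2 FPKM in IVF, 0.663 in SCNT and 4.02 with KDM5B, and was 196-fold lower in SCNT (difference -6.30). BGI_novel_G002865 had 71.0 FPKM in IVF, 0.437 in SCNT and 3.12 with KDM5B, and was 163-fold lower in SCNT (difference -5.65). Both IVF-high loci were listed at 0 in fibroblasts.

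**Figure D4:**
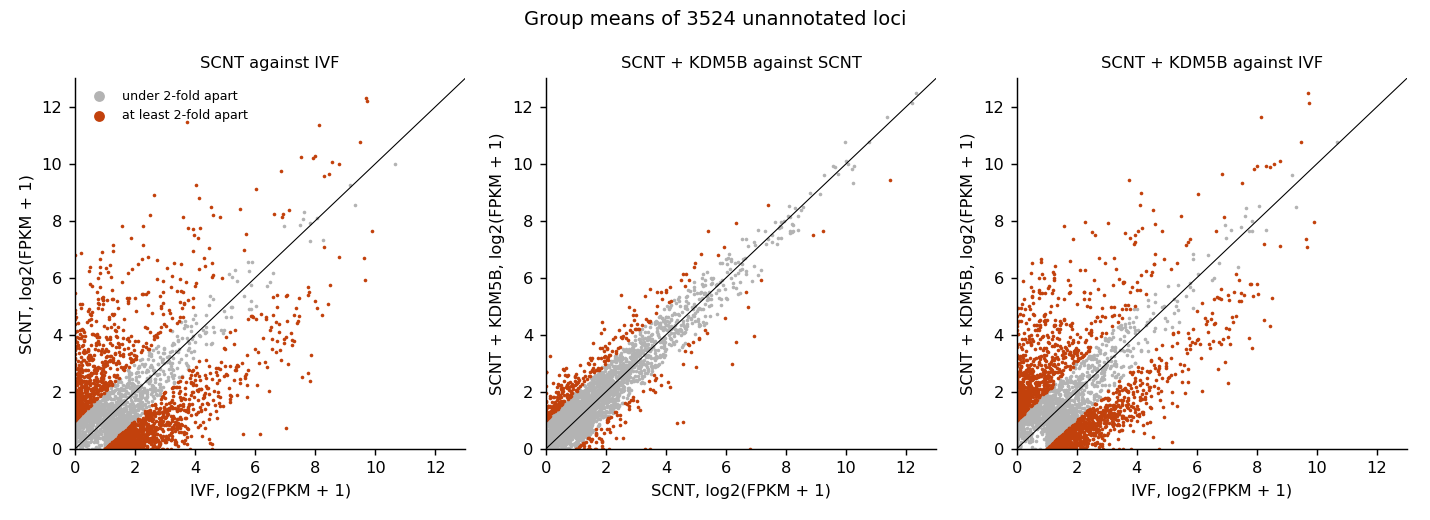
Group means of the 3524 unannotated loci at 1 FPKM or more in an embryo group, as log2(FPKM + 1) on both axes, with 1 point per locus, 1 panel per comparison, and loci at least 2-fold apart in orange. Points spread widely on both sides of the line of equality in both comparisons with IVF (2047 and 1982 loci apart) and lie close to it between the clone groups (379 apart).

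Between SCNT and IVF, unannotated loci were spread more widely than Ensembl IDs of similar level. Unsplit, the share higher was 23.3% in both classes. Loci were then divided by the mean FPKM of SCNT and IVF, which gives both groups equal weight, a division made after the data were seen. At a mean of 10 to 50 FPKM, 43.2% of 280 unannotated loci were at least 2-fold higher in SCNT and 35.7% lower, against 25.2% higher and 39.8% lower of 3206 Ensembl IDs. At a mean of 50 or more, 41.6% of 125 unannotated loci were higher and as many lower, against 37.8% and 30.7% of 1965 Ensembl IDs. The share apart in either direction was larger for unannotated loci in all 6 level classes, as deposited, with columns centred, as TPM and after quantile normalization. For 10 to 50 FPKM, the share higher ranged from 39.3% to 47.5% for unannotated loci and from 22.2% to 32.0% for Ensembl IDs over other pseudocounts and scalings. A locus enters a class partly through its higher group, and the difference between unannotated loci and Ensembl IDs was not tested, as each group has 1 value.

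**Figure D5:**
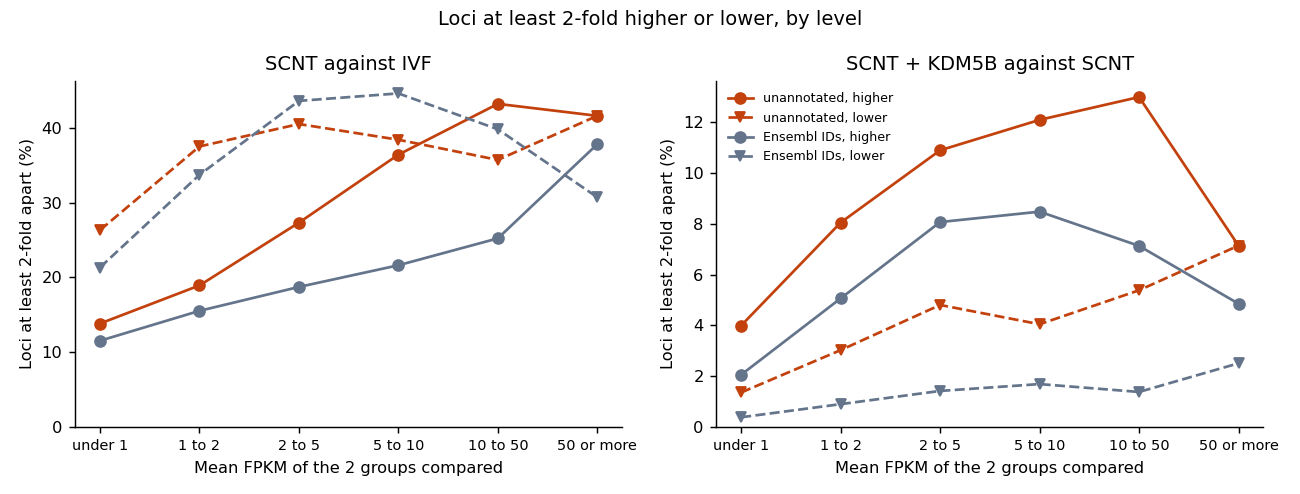
Share of loci (y axis, percent) at least 2-fold higher (circles, solid) or lower (triangles, dashed) by mean FPKM of the 2 groups compared (x axis), for unannotated loci (orange) and Ensembl IDs (grey), in SCNT against IVF (left) and SCNT with KDM5B against SCNT (right). At 10 to 50 FPKM the left panel has 43.2% of unannotated loci higher against 25.2% of Ensembl IDs, and at 50 or more unannotated loci are as often higher as lower (41.6% each).

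Loci with neighbouring numbers often differed the same way. Whether the authors' numbers follow position in the genome is not given in the sources used here. Among 997 pairs of loci with consecutive numbers that were both at least 2-fold apart between SCNT and IVF, 764 (76.6%) had the same direction, against 462 of 867 pairs (53.3%) whose numbers differed by 100. Runs of 5 or more consecutive numbers that were all lower in SCNT numbered 27, with 164 loci, and runs that were all higher numbered 15, with 87 loci.

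The longest run lower in SCNT held 10 loci, from BGI_novel_G002848 to BGI_novel_G002857, and a run of 9 from BGI_novel_G002859 to BGI_novel_G002867 followed after 1 number. In the second of these, IVF levels went from 4.41 to 227 FPKM, SCNT levels from 0.437 to 10.1 and levels with KDM5B from 2.99 to 47.2, and all 9 were listed at 0 in fibroblasts. BGI_novel_G002861, for example, had 227 FPKM in IVF, 4.27 in SCNT and 10.5 with KDM5B. BGI_novel_G002863 had 112 FPKM in IVF, 10.1 in SCNT and 47.2 with KDM5B. In each of these 9 loci the SCNT mean was the lowest of the embryo means. That it lay under IVF is fixed by the choice of the run. A choice on low SCNT means also favours higher means with KDM5B. The other run of 9, from BGI_novel_G004652 to BGI_novel_G004660, had SCNT and KDM5B values closer to each other, such as 217 FPKM in IVF, 50.8 in SCNT and 54.5 with KDM5B for BGI_novel_G004659. Its first locus, BGI_novel_G004652, was lower with KDM5B (0.507 FPKM) than in SCNT (1.06 FPKM).

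Among runs higher in SCNT, the longest held 9 loci, from BGI_novel_G004681 to BGI_novel_G004689, and the next 7, from BGI_novel_G000507 to BGI_novel_G000513. In the latter, IVF levels were 0.0200 to 2.39 FPKM, SCNT levels 5.16 to 35.4 and levels with KDM5B 2.05 to 45.0, with at most 0.0700 in fibroblasts. Neighbours could also be unlike: BGI_novel_G004212, found in SCNT alone, has the number before BGI_novel_G004213, the leading locus of fibroblasts.

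The second comparison set cloned embryos with KDM5B overexpression against those without it. SCNT with KDM5B and SCNT lay at least 2-fold apart for 379 of the 3524 unannotated loci (10.8%), against 8.28% of all loci. KDM5B was higher for 270 (7.66%, background 6.47%) and lower for 109 (3.09%, background 1.81%). The median log2 difference was 0.14 over unannotated loci and 0.18 over all loci. The balance rested on that shift, since with columns centred 161 loci were higher and 185 lower, a move from 71.2% to 46.5% higher among loci apart, and after quantile normalization 175 and 195 (47.3%). Over all loci the share higher among those apart was 78.2% as deposited, 51.2% centred and 54.5% after quantile normalization. As TPM, 306 unannotated loci were higher and 125 lower (71.0%, against 78.3%). At each level, the share apart was larger for unannotated loci than for Ensembl IDs, for example 18.4% against 8.5% at a mean of 10 to 50 FPKM in the groups compared, and was so under each scaling.

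Among the 3524 unannotated loci compared, 20 were at least 4-fold higher with KDM5B than in SCNT and 12 at least 4-fold lower. The 11312 Ensembl IDs compared had 20 higher and 9 lower, and all 14836 loci together had 40 and 21. With columns centred the unannotated loci numbered 12 higher and 16 lower. Of the 20 higher unannotated loci, 17 were listed at 0 in fibroblasts and 10 reached 5 FPKM in IVF. The shares were 36.3% and 19.2% among all 3524 unannotated loci compared. Of the 20 Ensembl IDs at least 4-fold higher, 7 were listed at 0 in fibroblasts and 10 reached 5 FPKM in IVF, against 7.26% and 60.0% of the 11312 compared. These backgrounds are not matched for level, since a 4-fold rise needs more than 1 FPKM with KDM5B. Whether the unannotated loci are all separate is not known. BGI_novel_G002849, BGI_novel_G002851, BGI_novel_G002863 and BGI_novel_G002867 belong to the runs of consecutive numbers described above. BGI_novel_G004519, BGI_novel_G004520 and BGI_novel_G004521 share 5.54 FPKM with KDM5B. BGI_novel_G000847 had 189 FPKM in IVF, 4.69 in SCNT and 41.0 with KDM5B, an 8.74-fold difference between the clone groups (log2(FPKM + 1) difference 2.88), and has the number before BGI_novel_G000848, an IVF-leading locus with the same order of groups. BGI_novel_G001223, named after its values were seen, had 214 FPKM in IVF, 41.4 in SCNT and 198 with KDM5B. BGI_novel_G004870 had the largest difference upward, 3.14, at 8.58 FPKM against 0.0900, with 0 in IVF and in fibroblasts.

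The 12 loci at least 4-fold lower had a median of 26.9 FPKM in SCNT, 0.905 with KDM5B and 0.417 in IVF, and 2 of them (16.7%) reached 5 FPKM in IVF, near the 19.2% of all 3524 unannotated loci compared. The order of the SCNT and KDM5B medians follows from the choice of these loci. Low IVF values are common, with a median of 1.01 FPKM over all 4802 unannotated loci. BGI_novel_G004212 (109.7 FPKM in SCNT and 0 with KDM5B) and BGI_novel_G004516 (22.8 and 0.937, a 24.3-fold difference) were the most different, by -6.79 and -3.62. The share that 1 SCNT library had in these means was not tested, as the table holds no library values. BGI_novel_G004468, which had the largest difference between SCNT and IVF, was 4.13-fold lower with KDM5B than without and still 55.7-fold higher than in IVF.

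The third comparison set SCNT embryos with KDM5B against IVF embryos. It shares the IVF column with the first comparison and the KDM5B column with the second. At least 2-fold apart were 1982 of the 3524 unannotated loci (56.2%), against 57.1% of all loci, 939 higher (26.6%, background 25.9%) and 1043 lower (29.6%, background 31.2%). With columns centred 1166 were higher and 718 lower, so that 61.9% of loci apart were higher in place of 47.4%. Over all loci these shares were 56.7% and 45.4%. After quantile normalization 974 were higher and 877 lower (52.6% higher, against 47.6% over all loci). As TPM, 925 were higher and 1245 lower. BGI_novel_G003675, described above, had the largest difference upward, 6.24. BGI_novel_G002281 followed with 6.02, at 0.423 FPKM in IVF, 54.4 in SCNT, 91.1 with KDM5B and 0 in fibroblasts.

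The loci with the largest difference downward had intermediate values in SCNT. BGI_novel_G001646 had 35.4 FPKM in IVF, 2.65 in SCNT and 0.170 with KDM5B, a 208-fold difference between IVF and the KDM5B group (log2(FPKM + 1) difference -4.96). BGI_novel_G003738 had 25.9 FPKM in IVF, 2.61 in SCNT and 0 with KDM5B (difference -4.75). In both, the KDM5B mean was farther from IVF than the SCNT mean. Their choice by the largest difference between KDM5B and IVF favours this order.

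Loci with sizeable levels in every group were few. The highest lowest values over the 4 groups belonged to BGI_novel_G000316, BGI_novel_G000260 and BGI_novel_G000313. BGI_novel_G000260 stood at 259.6 FPKM in fibroblasts, 349.6 in IVF, 795 in SCNT and 938 with KDM5B. BGI_novel_G000313 stood at 191 FPKM in fibroblasts, 241 in IVF, 1168 in SCNT and 915 with KDM5B. At the other end, 1873 loci (39.0% of all unannotated loci) were listed at 0 in fibroblasts. They held 38.5% of the unannotated FPKM in IVF, near their share by number, 48.6% in SCNT and 46.9% with KDM5B. Of them, 31 reached 100 FPKM in IVF, 20 in SCNT and 19 with KDM5B. Their summed FPKM was 13384 in IVF and 25719 in SCNT. Of the SCNT sum, BGI_novel_G003846 held 5128 FPKM, BGI_novel_G001658 4674, BGI_novel_G004468 2819 and BGI_novel_G003788 2621. In IVF these loci had 829, 850.3, 12.3 and 281 FPKM. The share without them was not tested.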

How the data were processed

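RNA sequencing libraries were grouped by their titles, because another label calls the fibroblasts SCNT embryos. Embryo cDNA was amplified after direct lysis, per the labels' protocols, which may distort low values. The deposited FPKM were computed by the authors, in 1 column per group. That each column is a mean of 3 libraries is read from the values, which are multiples of 0.01 divided by 3 (tolerance 0.001 on the value times 300) except for 1 value in each embryo column. The submitters' processing notes name the build UMD3.1 and the tools RSEM 1.2.12, StringTie 1.0.4, HISAT 0.1.6, Bowtie2 2.2.5 and bcl2fastq 2.16, without the role of each. How unannotated loci were assembled or filtered is not given in the sources used here.

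Loci were found at 1 FPKM or more. Differences of log2(FPKM + 1) were taken over all loci at 1 FPKM or more in an embryo group and counted at 2-fold, with no test, as library values were not used here. This scale understates differences of low loci. A rank is 1 plus the number of Ensembl IDs with a higher value in the column. Loci named are the 5 most abundant of each group, the 2 most abundant of each 1-group class, the 3 with the highest lowest value, and the 2 with the largest difference each way in each comparison, with 5 FPKM or more in the higher group. Others are marked as named after their values were seen, as were the runs of numbers, whose loci were chosen from the longest. The members and rules were chosen with earlier results of these data known. Alternatives were other pseudocounts, filters, limits and scalings, including TPM. The counting was checked for SCNT against IVF on 12582 loci with 200 set apart, of which it returned 200 and 0 others. The gene table had 37063 entries, 0 of them with an Ensembl ID. Python 3.11.15, numpy 2.4.6, pandas 2.3.3 and matplotlib 3.10.9 were used.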

Additional observations from a re-analysis of the deposited data

How the results depend on the processing

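Of the alternative values for the counts, shares and ranks that answer a comparison, 29 stayed within 1.5 times of the reported value and 33 did not. The 33 came from a changed pseudocount, filter, fold or detection limit. How much of each move is fixed by the setting was not tested. Scaling moved counts in 1 direction by over 1.5 times: loci lower in SCNT than in IVF went from 1225 to 694 with columns centred. Loci higher with KDM5B than in SCNT went from 270 to 161 centred and 175 after quantile normalization, and lower loci from 109 to 185 and 195. For SCNT against IVF, loci apart numbered 617 at pseudocount 5, 550 at a mean embryo FPKM of at least 5 and 662 at 4-fold. For SCNT with KDM5B against SCNT they numbered 1134 at pseudocount 0.1, 72 at pseudocount 5, 129 at a mean of at least 5 and 32 at 4-fold. For SCNT with KDM5B against IVF they numbered 596 at pseudocount 5, 543 at a mean of at least 5 and 556 at 4-fold. At a mean of at least 5, SCNT was higher than IVF for 328 unannotated loci and lower for 222, and SCNT with KDM5B for 342 and 201, but that mean includes both clone groups and 1 IVF group, so clone-high loci pass more easily. With a mean of at least 5 over only the groups compared, chosen after seeing the data, the numbers were 284 and 269, and 304 and 256. With no filter the counts were the same, since a locus under 1 FPKM cannot be 2-fold apart at pseudocount 1.

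Loci above 0, at 0.1 and at 5 FPKM numbered 2929, 1961 and 229 in fibroblasts, 4348, 4018 and 678 in IVF, 4231, 3771 and 649 in SCNT, and 4410, 3956 and 737 with KDM5B. With the same limits, 269, 640 and 538 loci were found in exactly 1 group, 2552, 1551 and 88 in all 4, and 1205, 1486 and 208 in the 3 embryo groups and not in fibroblasts. Requiring 0 in the other groups left 79 loci in exactly 1 group and 264 in the 3 embryo groups. None of 60 alternative values of the 12 differences for which loci were named changed sign, and 20 moved by more than 1.5-fold. Shares of summed FPKM and ranks stayed within 1.5 times in each group.

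No paired analysis was possible because each column is the mean of a group, without replicate numbers, and leaving out replicates was not run for the same reason. Depth is unknown, so no limit of detection is given.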

Other observations

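Some unannotated loci shared their values exactly. Among the 3706 loci at 1 FPKM or more in some group, 5 pairs had the same FPKM in all 4 columns to 6 decimals, and 4 of the pairs had consecutive numbers. BGI_novel_G004514 and BGI_novel_G004515 both had 5.44 FPKM in IVF, 14.9 in SCNT, 23.8 with KDM5B and 0 in fibroblasts. BGI_novel_G004517 and BGI_novel_G004518 shared 0.453 FPKM in IVF, 5.21 in SCNT and 0.937 with KDM5B. BGI_novel_G004516 had the same IVF and KDM5B values as that pair and 22.8 FPKM in SCNT. BGI_novel_G004519 and BGI_novel_G004520 shared 5.54 FPKM with KDM5B and 0.00333 in SCNT, and BGI_novel_G004521 had the same 5.54 FPKM with KDM5B and 0 in SCNT. Of the 7 loci found in SCNT with KDM5B alone at 5 FPKM or more, these make up 3, and BGI_novel_G004516, BGI_novel_G004517 and BGI_novel_G004518 make up 3 of the 7 found in SCNT alone. These loci were chosen for their shared values after the data were seen.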
